A study of Mus musculus with 30 samples.

Results

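Isolated glomeruli, the capillary tufts that filter blood in the kidney, were compared between wild-type mice of 8 weeks (4 arrays) and of 4 weeks (3 arrays), 7 of the 30 microarrays of the series. The members are the arrays whose titles name wild type and one of these ages, and the comparison covers all 24099 genes that passed a filter on low signal. All mice were females of the BTBR strain, a background prone to insulin resistance. The series also holds wild-type animals of 16 and 24 weeks and BTBR ob/ob animals, which lack functional leptin, of the same 4 ages; each genotype has 3 animals at 4 weeks and 4 at every later age, 1 array per animal. The wild-type mice are labelled BTBR WT with no treatment named. Glomeruli were collected by sieving whole kidneys and their purity was checked under a microscope. Each sample was thus prepared as a fraction of whole glomeruli, is not one cell type, and also held tubule RNA (below). In such bulk RNA, fewer cells of a type and less RNA per cell cannot be told apart.

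A glomerulus consists of a capillary tuft lined by fenestrated endothelium, a basement membrane of laminin and type IV collagen, podocytes on its outer face and mesangial cells between the loops. In mice, new nephrons stop forming in the first days after birth, after which the existing tufts grow and their cells leave the cell cycle. In a dividing cell, a set of genes that peaks in G2 and mitosis makes the spindle, the kinetochores and the contractile ring, and these transcripts fall when cells become quiescent. In female mice, puberty falls between these ages.

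Values are log2 signals as deposited, and differences are given as 8 minus 4 weeks in the same units with the standard error (SE) of the fit. A gene was called at a Benjamini-Hochberg adjusted p below 0.05 in limma, fitted over all 30 arrays with 1 mean per group. Because the deposited values reach 19.93, above the 16 that a 16-bit scanner can give on a log2 scale, no difference is turned into a fold change.

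The labelled tissue was checked against its markers: the mean over 7 arrays lay above the intron controls (array medians 6.10 to 6.21) for 24 of 24 podocyte genes, 19 of 20 glomerular endothelial genes and 11 of 14 mesangial and smooth muscle genes. It did so too for 24 of 26 proximal tubule genes and 21 of 21 genes of distal nephron and collecting duct, so tubule RNA was present beside that of the glomerulus. List means per array were 13.87 to 14.76 for proximal tubule and 11.28 to 12.73 for distal nephron and collecting duct. These lay above the podocyte (10.11 to 11.09), glomerular endothelial (10.07 to 11.00) and mesangial (8.72 to 9.48) means. The lists hold different genes, so the share of tubule RNA was not measured. The 7 arrays were alike in quality, with exon controls separated from intron controls by 0.847 to 0.862 at 4 weeks and 0.826 to 0.865 at 8 weeks, as the area under the curve, and pairwise correlations of 0.983 to 0.996. Single arrays stood apart in other ways. The heat shock gene Hspa1a reached 13.98 in 8-week animal 3 and 11.31 in 4-week animal 2 against at most 8.40 in all other arrays. Xist, the RNA that coats the inactive X chromosome of females, was 8.17 in 8-week animal 3 and 7.66 in an ob/ob animal of 8 weeks, against 14.35 to 17.23 in the other 28 arrays. In 8-week animal 3 the Y-linked genes Eif2s3y (5.47), Kdm5d (4.80) and Uty (4.79) lay within the ranges of the 28 arrays of high Xist, which were 5.30 to 5.66, 4.56 to 4.97 and 4.65 to 4.95. The reason for the low Xist was not tested. The mean of 4 steroid synthesis genes of the adrenal cortex (Cyp11b1, Cyp21a1, Star and Cyp11a1, picked after their values were seen) was 7.88 in 4-week animal 3, 6.69 in 4-week animal 2 and 6.54 in 8-week animal 2. It was 5.06 to 5.73 in the other 4 arrays of the comparison.

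**Figure D1:**
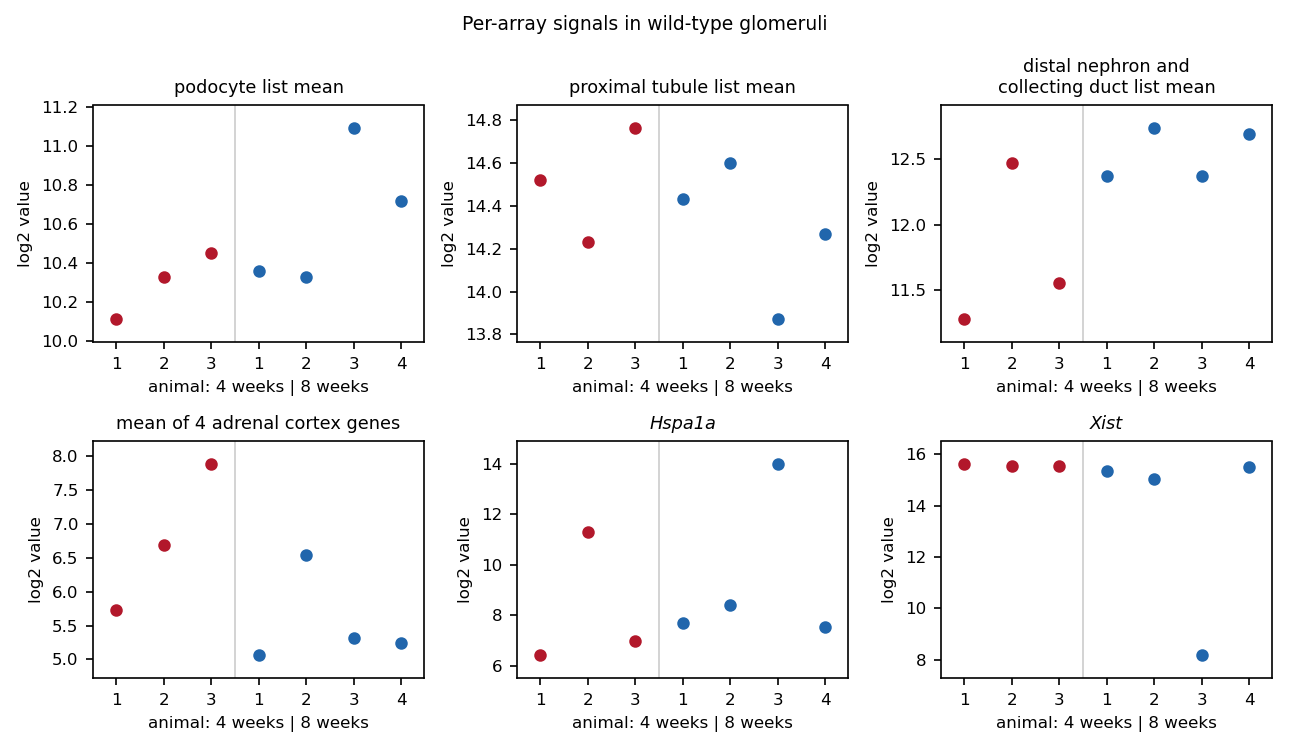
Mean log2 signal of the podocyte, proximal tubule and distal nephron lists, of 4 adrenal cortex genes, and of Hspa1a and Xist in each wild-type array (red, 4 weeks, 3 animals; blue, 8 weeks, 4 animals). Animal 3 at 8 weeks has the highest Hspa1a (13.98), the lowest Xist (8.17) and the highest podocyte mean (11.09), and 4-week animal 3 has the highest adrenal mean (7.88).

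Between 4 and 8 weeks few genes passed the threshold in the wild-type glomerular fraction, and with all arrays fitted most of these were genes of cell division. With so few arrays, a gene that did not pass is not shown to be unchanged. The fraction also held tubule RNA, and which cells the cell division transcripts came from was not tested. Of the 24099 genes tested, 34 passed the threshold (0.141%), 32 lower at 8 weeks (0.133%) and 2 higher (0.0083%). Grouped by known function after the calls were seen, 27 of the 32 lower genes act in mitosis, cytokinesis or DNA synthesis. The other 5 were Ptgds, Frem2, Col4a5, Dnmt3a and the predicted gene Gm24035, and the 2 higher genes were the cytochrome P450 genes Cyp4a12a and Cyp2d12. The median difference over all genes was 0.01, with the middle 50% of genes between -0.09 and 0.11. At an unadjusted p under 0.05 there were 1243 genes (5.16%), 801 lower (3.32%) and 442 higher (1.83%). In each of the 34 genes the 3 arrays of 4 weeks and the 4 of 8 weeks did not overlap. This pattern was seen downward in 3.39% and upward in 2.88% of all genes. The 34 genes were called on these same arrays, so nothing is read from this count.

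The count of called genes changed with the arrays fitted, with single arrays left out, and with scaling and weights. With the 7 arrays fitted alone limma called 0 genes, with 1386 at an unadjusted p under 0.05, the 34 genes among them at p up to 0.00849 and a smallest adjusted p of 0.366. With the 15 wild-type arrays it called 3, Arhgap11a, Kif20a and Ptgds, and the direction of all 34 was kept in both fits. Leaving out 1 wild-type array gave 9 to 37 calls: 9 without 4-week animal 1, 14 without 4-week animal 2, 37 without 4-week animal 3, and 16, 20, 22 and 28 without 8-week animals 1, 2, 3 and 4. Only Arhgap11a, Kif20a and Anln passed in all 7 of these fits. These 3 were the only cell division genes among the 9 calls without 4-week animal 1, so most calls of that fit lay outside cell division. Its other calls were Ptgds, Col4a5, Frem2, Akr1cl, Serpina6 and the adrenal cortex gene Star. In each of the other fits, 13 to 24 of the cell division genes called with all arrays passed. Without both arrays of high Hspa1a, 8-week animal 3 and 4-week animal 2, 2 genes passed, Arhgap11a and Ckap2. Cyclic loess scaling gave 62 calls and array weights 60, with 33 and 34 of the 34 genes among them.

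**Figure D2:**
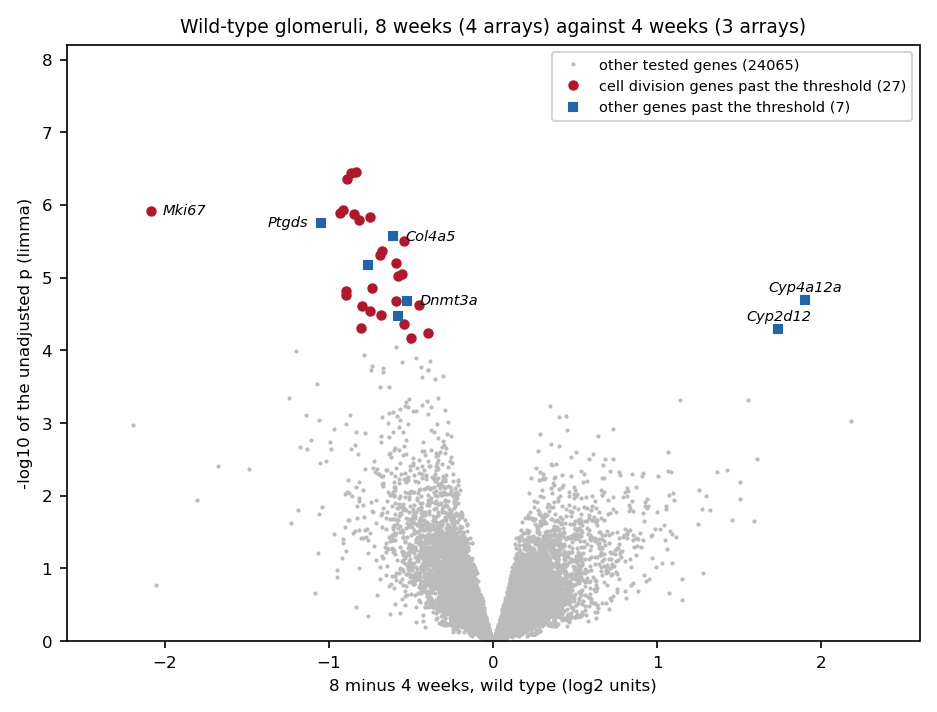
Difference of each tested gene, 8 minus 4 weeks in wild type (x axis, log2 units), against -log10 of its unadjusted p in limma (y axis). Red points are the 27 cell division genes and blue squares the 7 other genes past the threshold; 32 of the 34 lie on the left, lower at 8 weeks.

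Mki67, which encodes the Ki-67 protein that coats mitotic chromosomes and is the usual marker of cycling cells, had the largest fall of the genes past the threshold. Its log2 values were 9.91, 9.50 and 8.63 at 4 weeks and 6.76, 7.11, 7.10 and 8.06 at 8 weeks. Animal 4 at 8 weeks was the highest of its age and still below all 3 animals of 4 weeks. Mki67 averaged 9.35 ± 0.65 (SD, n = 3) and 7.26 ± 0.56 (SD, n = 4), and fell by 2.09 (SE 0.33, adjusted p = 0.00426).

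Top2a, the topoisomerase that untangles replicated chromosomes, read 7.58, 7.27 and 6.85 at 4 weeks and 6.11, 6.13, 6.26 and 6.68 at 8 weeks. It fell by 0.94 (SE 0.15, adjusted p = 0.00426), with the same animals at the ends of both groups as for Mki67. Kif11, the kinesin that pushes the spindle poles apart, was 7.53, 6.91 and 6.82, then 6.11, 6.07, 6.11 and 6.41, and fell by 0.91 (SE 0.14, adjusted p = 0.00426). Arhgap11a, a regulator of the small GTPase RhoA, was 8.51, 7.86 and 8.01 at 4 weeks against 7.19, 7.21, 7.16 and 7.38 at 8 weeks. Its 8-week arrays were the tightest of these 4 genes, and it fell by 0.89 (SE 0.13, adjusted p = 0.00349).

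Many of these genes share promoter elements known from the cell cycle literature. They are a CHR (cell cycle genes homology region, TTTGAA), bound by the DREAM and MuvB complexes, and a CCAAT box (CCAAT), bound by NF-Y. Promoters of 250 bases before to 50 bases after the start, from RefSeq on GRCm38.p6, were listed for 14331 of the 24099 genes tested and for 22 of the 27 cell division genes. The promoters of 6 of them are shown because their genes span the roles below, as the 150 bases before the listed start, written 5′ to 3′ on the gene's strand. Capitals mark each CHR (TTTGAA, or TTCAAA when read on the other strand) and each CCAAT box (CCAAT, or ATTGG), which do not overlap in these promoters.

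Mki67, chr7:135716380-135716529, minus strand: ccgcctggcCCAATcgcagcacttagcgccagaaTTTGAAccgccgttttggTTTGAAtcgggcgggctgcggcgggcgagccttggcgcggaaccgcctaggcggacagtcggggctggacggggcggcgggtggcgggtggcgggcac
Top2a, chr11:99024190-99024339, minus strand: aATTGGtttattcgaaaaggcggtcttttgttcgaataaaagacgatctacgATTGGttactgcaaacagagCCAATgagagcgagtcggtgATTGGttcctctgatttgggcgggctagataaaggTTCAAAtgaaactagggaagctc
Kif11, chr19:37376232-37376381, plus strand: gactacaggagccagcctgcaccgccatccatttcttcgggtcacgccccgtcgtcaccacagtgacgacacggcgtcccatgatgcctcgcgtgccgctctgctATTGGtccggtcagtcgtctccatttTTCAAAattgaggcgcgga
Cdc20, chr4:118437344-118437493, minus strand: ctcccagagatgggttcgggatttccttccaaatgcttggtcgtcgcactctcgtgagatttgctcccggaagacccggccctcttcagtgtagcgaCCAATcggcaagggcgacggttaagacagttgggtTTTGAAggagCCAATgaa
Arhgap11a, chr2:113848662-113848811, minus strand: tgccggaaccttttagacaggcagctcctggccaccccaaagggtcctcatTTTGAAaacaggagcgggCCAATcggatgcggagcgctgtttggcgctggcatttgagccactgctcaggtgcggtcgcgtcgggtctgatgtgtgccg
Rrm2, chr12:24708104-24708253, plus strand: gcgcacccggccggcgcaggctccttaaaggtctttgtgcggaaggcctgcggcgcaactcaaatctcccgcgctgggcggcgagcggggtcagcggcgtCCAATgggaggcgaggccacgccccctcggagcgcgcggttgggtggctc

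Counted on both strands, a CHR was found in 18 of the 22 cell division promoters (81.8%) and in 2350 of the 14331 promoters of all tested genes (16.4%). A CCAAT box was found in 17 of the 22 (77.3%) and in 41.8% of all promoters, and both together in 14 of the 22 (63.6%) and in 6.68% of all. Of the 29 listed promoters of the tested cell cycle list, which shares genes with the 22, a CHR was in 15 (51.7%). A CCAAT box was in 23 of the 29 (79.3%) and both were in 15 (51.7%). All 36 tested genes of that list had a difference below 0. The list therefore cannot tell whether the elements are particular to genes that fell. None of the 4 listed promoters of the other lower genes had a CHR, and 2 of them had a CCAAT box. In the promoters shown, the CHR of Cdc20, Kif11 and Top2a begins 18, 19 and 23 bases before the start with a CCAAT box farther out, and Mki67 has a pair of CHRs. In Arhgap11a the order is the other way, with the CHR beginning 99 and the CCAAT box 81 bases before the start. Cdc20 also has a CCAAT box at 8, nearer the start than its CHR, and the counts above did not ask for an order. Rrm2 has a CCAAT box and no CHR in this stretch. A match of these letters is a description of the sequence and says nothing of binding in these samples.

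By role, the spindle genes formed the largest share. Kif20a, a kinesin of the central spindle, fell by 0.86 (adjusted p = 0.00349), Tpx2, which nucleates spindle microtubules, by 0.84 (adjusted p = 0.00426) and Prc1, which bundles midzone microtubules, by 0.82 (adjusted p = 0.00426). Their 4-week arrays lay at 6.59 to 7.06, 6.61 to 7.35 and 6.78 to 7.31, and their 8-week arrays at 5.81 to 6.12, 6.02 to 6.38 and 6.05 to 6.56. Hmmr fell by 0.80 (adjusted p = 0.0388), and smaller falls passed for Ckap2, Kif4, Aspm, Nusap1 and Kif20b.

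Of the cytokinesis genes, Ect2, which activates RhoA at the cleavage plane, fell by 0.90 (adjusted p = 0.0197), and Anln, the anillin that ties actin and septins into the contractile ring, by 0.84 (adjusted p = 0.00349). Anln was 6.54, 6.60 and 6.16 at 4 weeks and 5.45, 5.51, 5.61 and 5.81 at 8 weeks. At the kinetochore, where chromosomes attach to the spindle, Cenpf (-0.74), Knl1 (-0.68) and Cenpe (-0.58) passed. The condensin subunits Ncapd2 (-0.45) and Ncapg2 (-0.40) passed with the smallest falls of the group. Ccna2, the cyclin A2 of S phase and G2, fell by 0.90 (adjusted p = 0.0185), and Cdc20, the activator of the anaphase-promoting complex, by 0.55 (adjusted p = 0.0124). The remaining genes of the group were the mitotic kinase Pbk (-0.80), Depdc1a (-0.69), Shcbp1 (-0.68) and Cip2a (-0.59), an inhibitor of protein phosphatase 2A. Ncapg2 passed in 0 of the 7 fits that left out 1 wild-type array, and Kif20b, Nusap1 and Shcbp1 in 1. Ccna2, Ect2, Hmmr, Pbk, Ckap2, Kif4 and Ncapd2 passed in 2 of the 7, and the other cell division genes in 3 to 7.

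Of DNA synthesis, Rrm2, the small subunit of ribonucleotide reductase, fell by 0.75 (adjusted p = 0.00426), from 7.44, 7.28 and 6.95 to 6.34, 6.58, 6.27 and 6.69. Within the cell cycle list, divided by role after the calls were seen, 1 of 13 replication and G1/S genes passed, Rrm2, and 12 of 23 mitotic genes. At an unadjusted p under 0.05, 4 of the 13 and 22 of the 23 were lower, and all differences in both groups were below 0, with medians of -0.14 and -0.58. The roles were not tested against each other. Pcna, the sliding clamp of DNA polymerase, was 9.24, 9.29 and 9.27 at 4 weeks and 9.07, 9.23, 9.01 and 9.31 at 8 weeks, with a difference of -0.11 (SE 0.15). The origin-licensing genes Mcm2 (-0.19, SE 0.10) and Mcm3 (-0.14, SE 0.19) did not pass either, and Mcm6 (-0.65, SE 0.21) had non-overlapping groups with an adjusted p of 0.563.

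The whole cell cycle list had 40 genes, of which 36 were tested. Lower at 8 weeks were 13 of the 36, and 26 had an unadjusted p under 0.05, against 0.133% and 3.32% of all genes. All 36 differences were below 0, against 46.3% of all genes, with a median of -0.43, which was -0.29 without 4-week animal 1. The list was chosen with earlier results of these data known, and 14 of the 27 cell division genes that passed, among them Arhgap11a, Ect2 and Anln, are not in it. Of the 14 genes with an adjusted p between 0.05 and 0.1, all lower at 8 weeks, Ube2c (adjusted p = 0.0605), Plk1 (adjusted p = 0.0865) and Bub1 (adjusted p = 0.0963) are in the list too.

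The 27 genes ranked the animals much alike. Their mean was 6.96, 6.63 and 6.42 in the 3 animals of 4 weeks and 5.80, 5.83, 5.88 and 6.11 in the 4 of 8 weeks. Animal 1 was the highest at 4 weeks for 24 of the 27 genes, animal 3 the lowest for 23, and animal 4 the highest at 8 weeks for 26. The adrenal cortex genes ran the other way among the 4-week animals, lowest in animal 1 and highest in animal 3, and their part in the result was not tested. Without 4-week animal 1 the median difference of the 27 genes was -0.57, and with all animals it was -0.75. It was -0.78 without both arrays of high Hspa1a and -0.77 without 8-week animal 3. With the podocyte or the proximal tubule list mean as a covariate it was -0.76 and -0.73, and 24 and 22 of the 27 genes passed. The mean of the distal nephron and collecting duct list was not used as a covariate. Many of these genes were weakly expressed: 19 of the 27 had an 8-week mean below 6.21, the highest intron control median, and 8 had a 4-week mean below it. The exact levels of those genes near the background are therefore uncertain.

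At 16 and 24 weeks the 27 genes were again below their 4-week level. In each of them every wild-type array of these ages lay below the lowest array of 4 weeks, against 2.29% of all genes, but the genes were chosen for high values in the same 4-week arrays, so nothing is read from this count. The mean of the 27 genes ranged from 5.65 to 5.85 at 16 weeks and from 5.64 to 5.97 at 24 weeks, beside 5.80 to 6.11 at 8 weeks. Mki67 averaged 6.82 at 16 and 6.84 at 24 weeks. These later ages were not tested against 8 weeks.

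Cdkn1a, the p21 inhibitor of cyclin-dependent kinases, was looked up after the calls were seen. It was 8.83, 10.28 and 8.96 at 4 weeks and 10.12, 11.14, 11.39 and 10.61 at 8 weeks, a difference of 1.46 (SE 0.60, adjusted p = 0.847). At 16 weeks it ranged from 7.22 to 8.91, below the 8-week arrays.

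**Figure D3:**
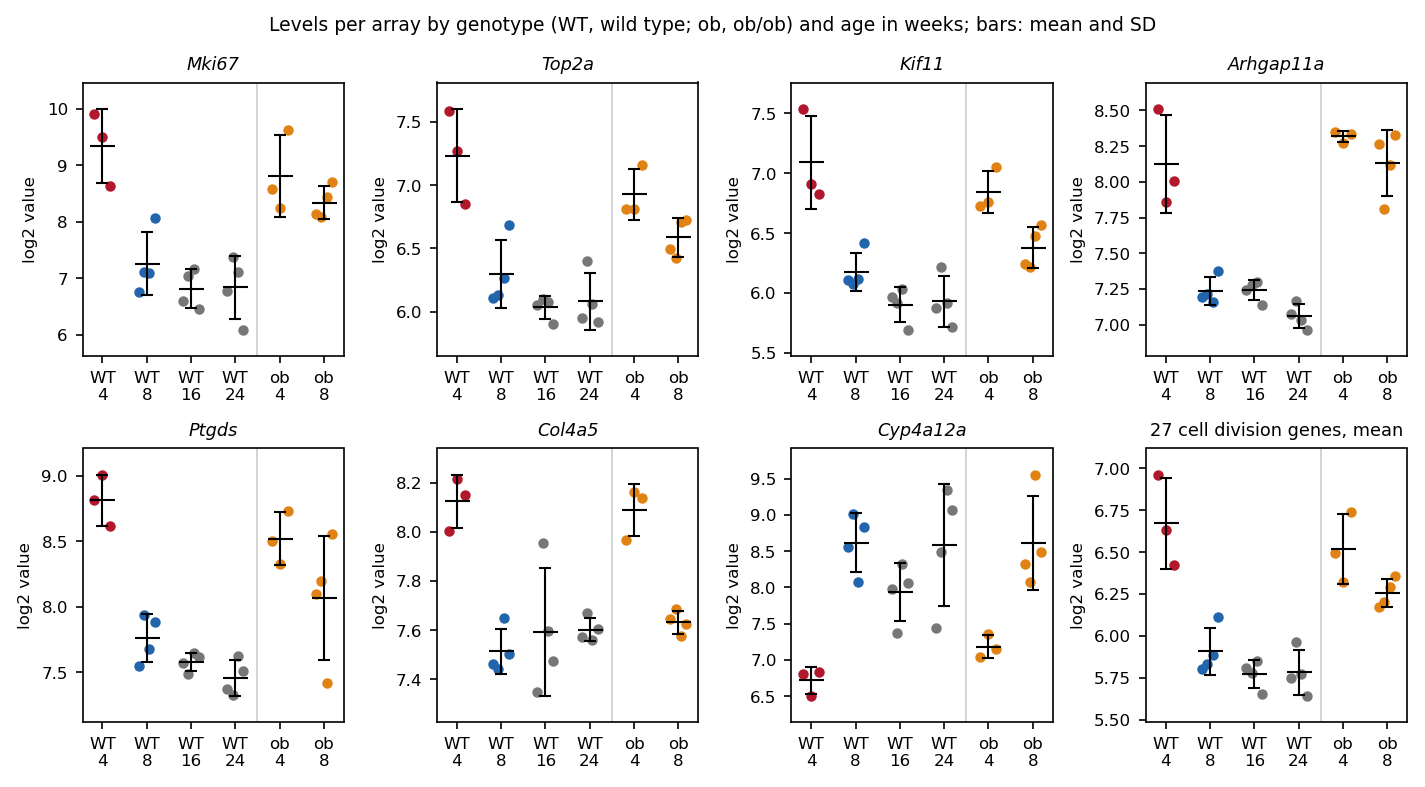
Log2 value in each array by genotype and age in weeks for 7 called genes and for the mean of the 27 cell division genes; points are animals (3 at 4 weeks, 4 at other ages), black bars the group mean and SD. The 27-gene mean is 6.42 to 6.96 in wild type at 4 weeks, 5.80 to 6.11 at 8 weeks and 5.64 to 5.97 at 16 and 24 weeks, while the ob/ob arrays of 8 weeks lie at 6.17 to 6.36.

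Outside cell division, Ptgds, the lipocalin-type synthase of prostaglandin D2, had the largest fall of the genes past the threshold. It was 8.81, 9.01 and 8.62 at 4 weeks and 7.55, 7.94, 7.67 and 7.88 at 8 weeks, and fell by 1.05 (SE 0.17, adjusted p = 0.00426). The groups were separated by more than their width. Its means at 16 and 24 weeks were 7.58 and 7.46.

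Col4a5 encodes the α5 chain of type IV collagen, which forms the mature network of the glomerular basement membrane together with α3 and α4 and is mutated in X-linked Alport syndrome. It read 8.00, 8.21 and 8.15 at 4 weeks and 7.46, 7.44, 7.65 and 7.50 at 8 weeks, and fell by 0.61 (SE 0.10, adjusted p = 0.00592). Its partners Col4a3 (-0.32, SE 0.27) and Col4a4 (-0.32, SE 0.19) did not pass, although their groups did not overlap. Frem2, a transmembrane protein that organises embryonic basement membranes, was 7.39, 7.77 and 7.83, then 6.99, 6.76, 6.88 and 6.97, and fell by 0.76 (SE 0.14, adjusted p = 0.0101).

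Of the basement membrane list, 18 of 18 genes were tested and 1 was lower past the threshold (Col4a5), against 0.133% of all genes. A difference below 0 was seen in 14, against 46.3% of all genes, with a median of -0.32. Lower at an unadjusted p under 0.05 were 6 of the 18, against 3.32% of all genes. Of the chains of the embryonic network, Col4a1 averaged 10.21 ± 0.24 (SD, n = 3) at 4 weeks and was 9.03, 8.98, 9.98 and 9.75 at 8 weeks, a difference of -0.78 (SE 0.35) that did not pass (limma adjusted p = 0.938). Lama1, the laminin chain of the immature membrane, was 8.16, 8.14 and 8.31 against 7.90, 7.70, 7.52 and 7.77 (-0.48, SE 0.17, adjusted p = 0.66). In both genes the groups did not overlap. Lama5, the laminin chain of the mature membrane, overlapped (-0.13, SE 0.23). Nid2, a nidogen named here after its values were seen, came nearest to the threshold, at 9.65, 9.94 and 9.86 against 9.02, 9.06, 9.13 and 9.08 (-0.74, SE 0.17, adjusted p = 0.0937).

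Dnmt3a, the de novo DNA methyltransferase, was 9.07, 9.34 and 9.15 at 4 weeks and 8.61, 8.57, 8.74 and 8.75 at 8 weeks, and fell by 0.52 (SE 0.10, adjusted p = 0.0211). Ezh2, the histone methyltransferase of the Polycomb complex, was 7.97, 7.75 and 7.69 against 7.42, 7.53, 7.28 and 7.57 (-0.35, SE 0.08, adjusted p = 0.119), and passed only after cyclic loess scaling (adjusted p = 0.0385). It belongs to the list of imprinted and postnatal growth genes, of which 0 of 17 tested passed and whose median was 0.02. Igf2, the fetal growth factor of that list, was at 5.49 to 5.78 at 4 weeks and 5.47 to 5.68 at 8 weeks, below the intron controls in all 7 arrays. Gm24035, a predicted gene outside the naming rule and named because it passed, fell by 0.58 (adjusted p = 0.0284) at levels of 4.44 to 5.26, below the intron controls, and passed in 0 of the 7 fits that left out 1 array.

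The 2 genes that rose encode cytochrome P450 enzymes. Cyp4a12a, an enzyme of 20-HETE synthesis that is much higher in male than in female mouse kidney, was 6.81, 6.51 and 6.83 at 4 weeks and 8.56, 9.01, 8.08 and 8.83 at 8 weeks, and rose by 1.90 (SE 0.36, adjusted p = 0.0211). Its near-identical neighbour Cyp4a12b, whose probes may share its signal, was 7.25, 6.71 and 7.19, then 8.51, 9.09, 7.97 and 8.84 (1.55, SE 0.39, adjusted p = 0.2). Cyp2d12 was 8.25, 7.90 and 8.42 against 10.17, 10.52, 9.31 and 9.72, and rose by 1.74 (SE 0.36, adjusted p = 0.0388). Both genes have close relatives that the array may not separate, and each passed in 1 of the 7 fits that left out a wild-type array. The proximal tubule list mean overlapped between the ages, at 14.52, 14.23 and 14.76 at 4 weeks and 14.43, 14.60, 13.87 and 14.27 at 8 weeks. Of the list of sex-biased kidney genes, 1 of 27 was higher past the threshold (Cyp4a12a), against 0.0083% of all genes, and the median was -0.01.

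Podocyte and endothelial markers gave no call. Of 24 podocyte genes tested 0 passed and 0 had an unadjusted p under 0.05, against 5.16% of all genes. A difference above 0 was seen in 22 and below 0 in 2, against 46.3% of all genes below 0, with a median of 0.35. The list mean was 10.11, 10.33 and 10.45 at 4 weeks and 10.36, 10.33, 11.09 and 10.72 at 8 weeks, so the groups overlapped. Nphs1, the nephrin of the slit diaphragm, differed by 0.43 (SE 0.60), Wt1, the podocyte transcription factor, by 0.63 (SE 0.48) and Podxl, which covers the podocyte surface, by 0.53 (SE 0.68). Their highest value was in 8-week animal 3 in each case.

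Of 20 glomerular endothelial genes 0 passed, with a median of 0.30. Flt1, the VEGF receptor 1, was 10.67, 11.26 and 11.10 against 11.78, 11.47, 12.33 and 12.22 (0.94, SE 0.36, adjusted p = 0.768), and Tek, the angiopoietin receptor, was 11.17, 11.39 and 11.56 against 11.88, 11.71, 12.45 and 12.50 (0.77, SE 0.37, adjusted p = 0.95). In both receptors the groups did not overlap. Ehd3, a glomerular endothelial marker, overlapped (0.63, SE 0.89), as did Kdr, the VEGF receptor 2 (0.60, SE 0.55). Vegfa, the ligand that podocytes supply, differed by 0.30 (SE 0.29). Of the ligands of the angiogenic list, Pdgfb, which endothelium supplies to mesangial cells, was 8.64, 8.82 and 9.27 against 8.17, 8.15, 8.61 and 8.52 (-0.54, SE 0.18, adjusted p = 0.586). Its receptor Pdgfrb was at 0.05 (SE 0.52). Of 13 mesangial and smooth muscle genes 0 passed, with a median of 0.01.

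Markers of distal nephron and collecting duct, tubule segments that the sieved fraction can carry, had the largest median of the 31 lists, 0.80. Of 21 genes 0 passed and 9 were higher at an unadjusted p under 0.05, against 1.83% of all genes. A difference above 0 was seen in 20 and below 0 in 1, against 46.3% of all genes below 0. The list mean was 11.28, 12.47 and 11.56 at 4 weeks and 12.37, 12.73, 12.37 and 12.69 at 8 weeks, so 4-week animal 2 lay with the 8-week animals. The median was 1.21 without that animal and 0.56 without 4-week animal 1. Scnn1a, a subunit of the epithelial sodium channel, was 11.20, 12.91 and 11.68 against 12.64, 13.08, 12.85 and 13.36 (1.06, SE 0.41, adjusted p = 0.775). Foxi1, the transcription factor of intercalated cells, was 9.04, 10.10 and 9.18 against 10.22, 10.25, 10.18 and 10.32 (0.80, SE 0.28, adjusted p = 0.66). For both genes 4-week animal 2 was the highest of its age. In ob/ob the same list had a median of -0.19.

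Proximal tubule markers had a median of -0.32, with 0 calls and 18 of 26 differences below 0, against 46.3% of all genes. The phosphate transporter Slc34a3 was 12.47, 12.44 and 12.57 against 11.69, 12.10, 11.09 and 11.21 (-0.97, SE 0.27, adjusted p = 0.321), and the glucose transporter Slc5a2 was 17.96, 18.03 and 18.21 against 17.66, 17.78, 17.31 and 17.38 (-0.53, SE 0.17, adjusted p = 0.578). Slc34a1, the main phosphate transporter, differed by -0.08 (SE 0.09) near the top of the scale. The list of amino acid and sugar transport, which shares members with the proximal tubule list, had a median of -0.45 with 0 of 26 calls. All 21 genes tested of oxidative phosphorylation had a difference below 0, against 46.3% of all genes, and 0 passed. Their median was -0.20, and 8-week animal 3 had the lowest list mean (12.34 against 12.52 to 12.92 in the other 6).

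Genes of antigen presentation gave no call. Of 25 tested genes of the interferon and antigen presentation list 0 passed, with a median of 0.20. At an unadjusted p under 0.05, 8 of the 25 were higher, against 1.83% of all genes. H2-Ab1, a chain of MHC class II, was 9.25, 9.37 and 9.41 at 4 weeks and 9.61, 10.10, 10.41 and 12.28 at 8 weeks (1.26, SE 0.44, adjusted p = 0.655), and H2-Eb1 was 6.09, 6.08 and 6.18 against 6.42, 6.74, 6.70 and 8.01 (0.85, SE 0.28, adjusted p = 0.578). Animal 4 at 8 weeks was the highest for both, and it also had the highest mean of the cell division genes at that age. At 16 and 24 weeks H2-Ab1 averaged 11.19 and 11.09. The macrophage list, which marks the cells that present antigen in the glomerulus, had 0 of 17 calls, a median of 0.10 and list means of 5.95 to 6.08 at 4 weeks and 5.89 to 6.33 at 8 weeks.

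Clock and stress genes did not pass. Per2 was 6.91, 7.80 and 6.95 against 8.46, 9.42, 7.83 and 9.20 (1.51, SE 0.51, adjusted p = 0.597) and Per1 was 7.28, 9.68 and 7.02 against 9.02, 9.72, 9.65 and 9.60 (1.51, SE 0.55, adjusted p = 0.698). Of 16 clock genes 0 passed, and the labels used here give no hour of collection. All 20 tested genes of the unfolded protein and heat shock list had a difference above 0, where 46.3% of all genes were below 0. None of them passed, and their median was 0.19, which was -0.04 without 4-week animal 1. The list mean was 12.71 in 4-week animal 2 and 12.80 in 8-week animal 3, the pair with the highest Hspa1a, against 11.43 to 12.35 in the other 5 arrays.

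**Figure D4:**
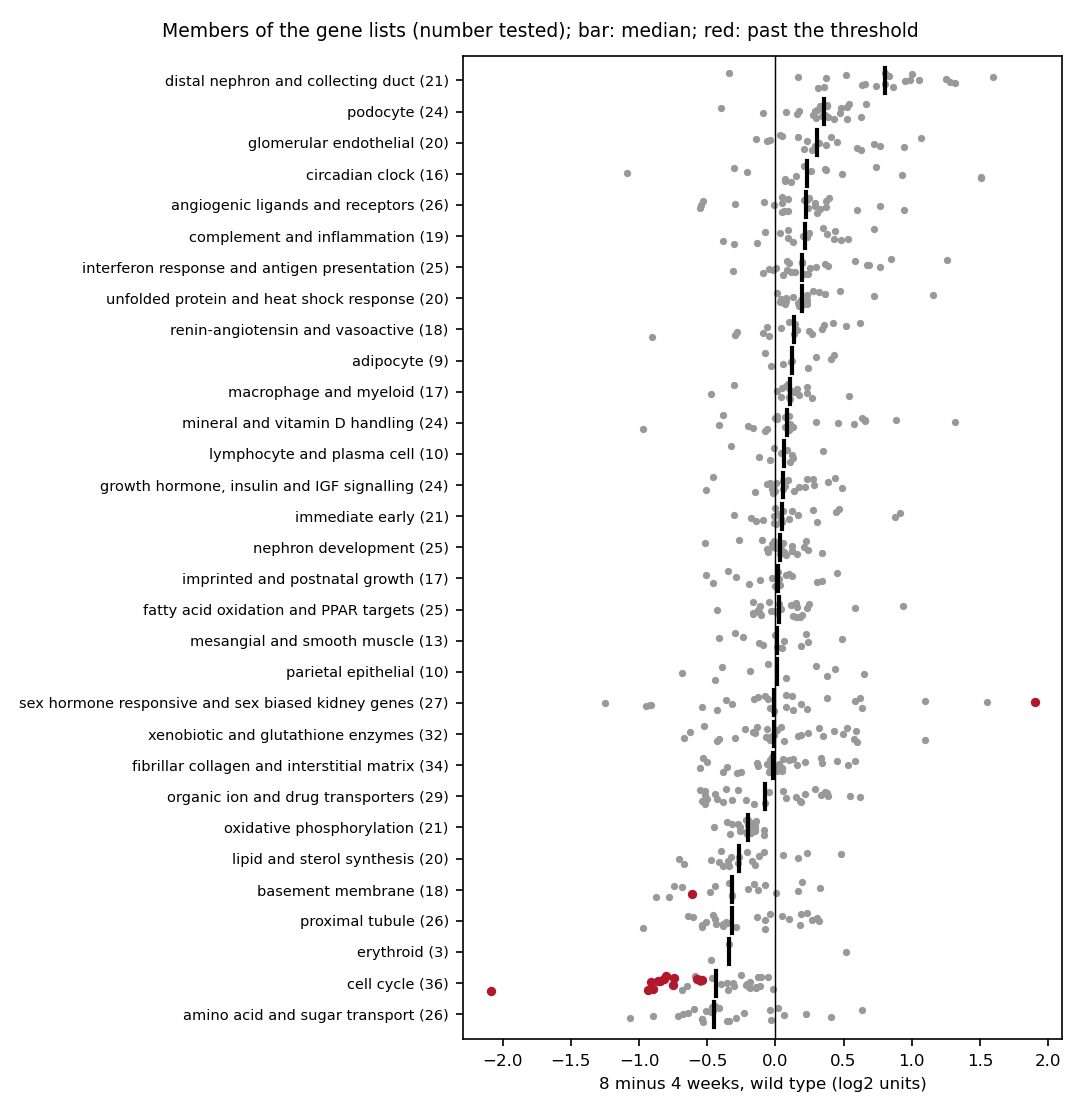
Difference of every tested member of the 31 gene lists, 8 minus 4 weeks in wild type (x axis, log2 units), with lists ordered by their median (black bar) and the number tested in brackets. Red points passed the threshold: 13 in the cell cycle list, Col4a5 in the basement membrane list and Cyp4a12a in the list of sex-biased genes.

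Members of the other lists gave no call, so 28 of the 31 lists had none. The median was 0.22 for the angiogenic list (26 tested) and 0.23 for the clock list. Medians were 0.04 for nephron development (25 tested, 0.09 without 4-week animal 2), -0.02 for fibrillar collagen and interstitial matrix (34), -0.27 for lipid and sterol synthesis (20), 0.02 for fatty acid oxidation (25) and -0.08 for organic ion and drug transporters (29). They were -0.01 for xenobiotic enzymes (32), 0.09 for mineral and vitamin D handling (24), 0.22 for complement and inflammation (19), 0.05 for immediate early genes (21) and 0.14 for renin-angiotensin and vasoactive genes (18), which was 0.01 without 8-week animal 3. The growth hormone, insulin and IGF list (24) had a median of 0.06, the lymphocyte list (10) 0.06, the adipocyte list (9) 0.12, the parietal epithelial list (10) 0.01 (0.20 without 8-week animal 3, 0.22 without both arrays of high Hspa1a) and the erythroid list -0.34 over its 3 tested genes (-0.04 without 8-week animal 3 and 0.10 without both arrays of high Hspa1a). Dhcr7 and Mvd of sterol synthesis, the 2 smallest p of that list, differed by -0.35 (SE 0.11, adjusted p = 0.479) and -0.71 (SE 0.23, adjusted p = 0.563). Col3a1, the fibrillar collagen with the smallest p of its list, differed by -0.38 (SE 0.12, adjusted p = 0.546).

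The same age step was measured in ob/ob animals, which share no array with the wild-type comparison but enter the same estimate of spread. In ob/ob limma called 0 genes at 8 against 4 weeks, with 869 genes (3.61%) at an unadjusted p under 0.05 and a smallest adjusted p of 0.212. Of the 32 genes that were lower in wild type, 30 had a difference below 0 in ob/ob, against 56.6% of all genes, and 17 had it at an unadjusted p under 0.05, against 2.23% of all genes. Without the ob/ob animal of low Xist these counts were 30 and 12. The same spread entered the choice of the 32 genes and their p-values in ob/ob, so the 2.23% is not a like background for the 17. The 27 cell division genes had a median difference of -0.25 in ob/ob, between -0.47 and 0.01, and of -0.75 in wild type.

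The cell division genes overlapped between the genotypes at 4 weeks, and at 8 weeks their mean was higher in every ob/ob animal than in any wild-type animal. It was 6.50, 6.32 and 6.74 in ob/ob at 4 weeks, within the wild-type span of 6.42 to 6.96 but for the lowest animal, and 6.17, 6.20, 6.29 and 6.36 at 8 weeks, against 5.80 to 6.11 in wild type. The ob/ob mean at 8 weeks exceeded the wild-type mean in 27 of 27 genes (47.3% of all genes), and in 16 of them every ob/ob array lay above every wild-type array (3.65% of all genes). The genes were chosen for low values in the same 8-week wild-type arrays, so nothing is read from these counts. Mki67 averaged 8.81 ± 0.73 (SD, n = 3) and 8.34 ± 0.29 (SD, n = 4) in ob/ob, a difference of -0.47 (SE 0.33), and Arhgap11a averaged 8.32 and 8.13. The difference between the steps was itself tested: limma called 0 genes, with 754 (3.13%) at an unadjusted p under 0.05 and a smallest adjusted p of 0.897. For Mki67 the steps differed by -1.61 (SE 0.47), and for Arhgap11a by -0.70, both with an adjusted p of 1. Because the 27 genes were chosen for a large step in wild type, a smaller step in ob/ob is in part built in, and no difference between the genotypes is read from it.

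Col4a5 was the called gene whose steps were closest among the falls, -0.46 (SE 0.10) in ob/ob and -0.61 (SE 0.10) in wild type. Neither Frem2 nor Ptgds passed in ob/ob, with differences of -0.45 (SE 0.14) and -0.45 (SE 0.17). Cyp4a12a differed by 1.43 (SE 0.36) in ob/ob, where its mean went from 7.18 to 8.61, and Cyp2d12 by 0.46 (SE 0.36). These 5 genes had the same direction in both genotypes, and Gm24035 (0.16, SE 0.12) and Ckap2 (0.01, SE 0.15) were the 2 lower genes with a difference above 0 in ob/ob.

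**Figure D5:**
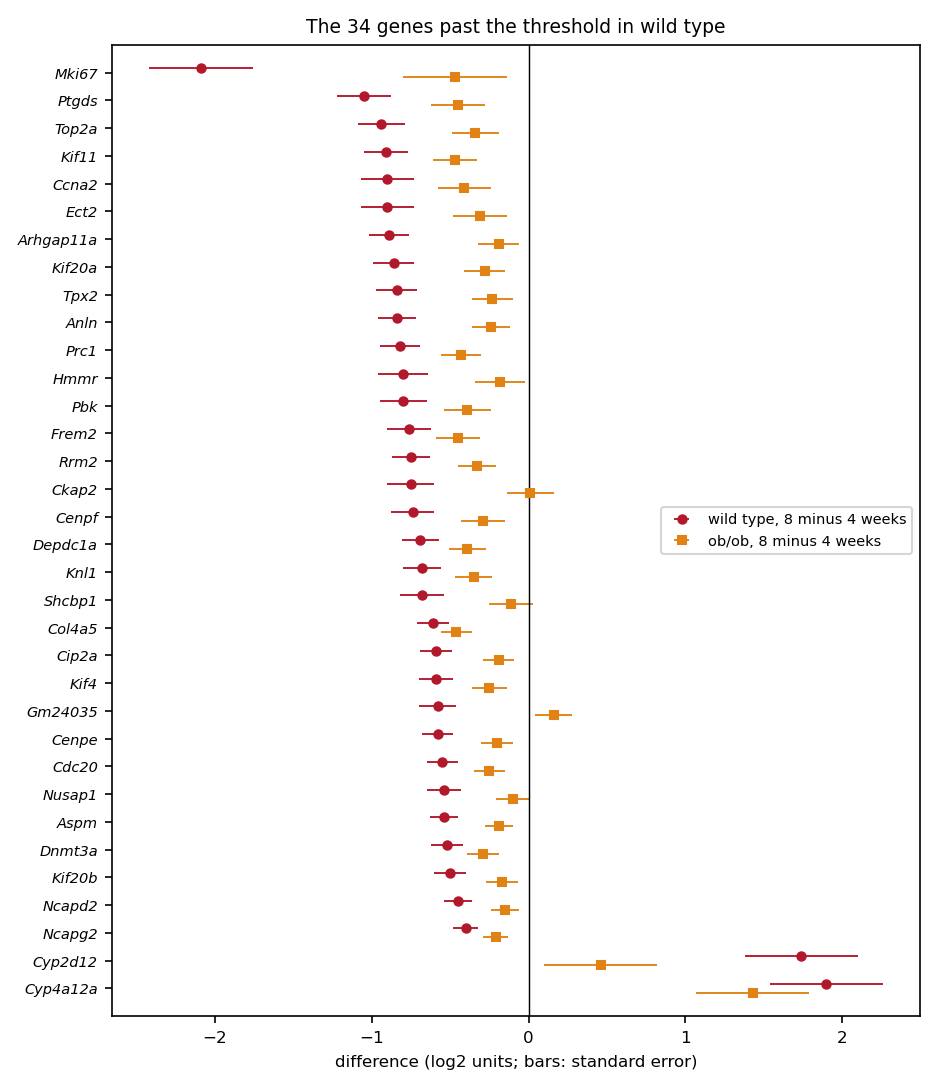
Difference of 8 minus 4 weeks with its standard error (x axis, log2 units) for the 34 genes past the threshold in wild type (red circles) and the same step in ob/ob (orange squares). The 27 cell division genes have a median of -0.75 in wild type and -0.25 in ob/ob; Cyp4a12a is at 1.90 and 1.43.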

How the data were processed

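RNA from isolated glomeruli of 30 mice was labelled with biotin and hybridised to Affymetrix arrays. The authors deposited log2 signals for 72688 probe sets, made with RMA and Affymetrix Expression Console 1.4 per the submitters' processing notes. The genome build behind the probe sets is not given in the sources used here. Probe sets with 1 gene symbol in the platform annotation were kept (30604), old symbols were updated through gene identifiers (827), and of 355 genes with several probe sets the one with the highest mean was used. The test took in the 24099 genes that reached a log2 signal of 5 on 3 or more arrays, 398 of which share their values with another gene.

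The values were fitted with limma 3.58.1 in R 4.3.3 (lmFit and eBayes) with 1 mean per group over the 30 arrays, which leaves 22 residual degrees of freedom, and p-values were adjusted by Benjamini-Hochberg. The code was tested on simulated data. An exact permutation test of 3 against 4 arrays cannot go below p = 0.0571, so none is given. Arrays have no read depth, and their number limits the precision: the median SE of a difference was 0.148.

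The comparison and the 31 gene lists were chosen with earlier results of these data known. Genes named by rule are the 15 largest falls and rises past the threshold (leaving out predicted genes), up to 5 called members of each list or else the 2 smallest p, and a fixed set that includes Nphs1, Wt1, Podxl, Kdr, Ehd3, Pdgfrb, Col4a1, Col4a3, Lama1, Lama5, Vegfa, Igf2, Mki67 and Slc34a1. The remaining called genes, the other list members, the role groups, Cdkn1a, the adrenal cortex genes, Hspa1a and the sex chromosome genes were picked after their values were seen. Replicate numbers are shared between the groups, but the deviations of same-numbered arrays correlated at 0.243, -0.262 and -0.379, so they were not treated as pairs. Alternatives covered the filter, the arrays fitted, scaling, weights, moderation, probe set choice, covariates and leaving out each array.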

Additional observations from a re-analysis of the deposited data

Results flagged for a closer look

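Of 65 genes and list means checked for a sample far from the others of its group, 2 stood apart, both among the 4 wild-type arrays of 8 weeks. Kif11 was 6.41 in animal 4, with the nearest other array at 6.11 and the lowest at 6.07, a gap of 0.88 of the range. Kif4, a chromokinesin, was 5.64 in animal 4, with the nearest at 5.44 and the lowest at 5.41, a gap of 0.854 of the range. Chance alone gives such a gap in about 1 in 20 groups, so 2 among the 65 checked are no more than chance would give. Animal 4 was the highest of its age for 26 of the 27 cell division genes.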

How the results depend on the processing

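All 34 genes kept their direction under each alternative in which they were tested. The medians of 11 of the 31 lists, none of them the cell cycle or basement membrane list, changed sign under at least 1 alternative. Of these, 9 lay within 0.1 of 0, and the others were the erythroid list (0.10 without both arrays of high Hspa1a) and the unfolded protein and heat shock list (-0.04 without 4-week animal 1). The count of 34 moved to 62 with cyclic loess scaling (3 higher, 59 lower), 60 with array weights, 4 with a difference of at least 1 required, 3 with the 15 wild-type arrays, 0 with the 7 arrays alone and 2 without both arrays of high Hspa1a (chosen after seeing the data). Leaving out 1 wild-type array at a time gave 9 to 37. With the replicate number as a block 22 genes passed, all among the 34; the numbers do not pair the animals. The proximal tubule covariate kept the count at 34 with another split, 6 higher and 28 lower. In ob/ob the count of 0 became 16 with array weights, 1 with the podocyte covariate, 1 with the separation of exon from intron controls as covariate, and 0 to 1 when 1 ob/ob array was left out. The difference between the steps gave 0 calls under each alternative run. Of 310 alternative list medians 299 lay within 1 SD of the replicates. Signal near the intron controls limits the weak genes, 19 of the 27 cell division genes at 8 weeks. Causes of these changes were not tested. The smaller fits differ both in the number of arrays and in which arrays set the spread. The median SE of the 27 cell division genes was 0.127 in the main fit, 0.141 with the 7 arrays alone and 0.151 without both arrays of high Hspa1a.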

Other observations

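Some genes outside the lists, picked after their values were seen, had large differences without passing. Cyp2a4, a cytochrome P450 steroid hydroxylase, was 10.56, 8.95 and 11.07 at 4 weeks and 12.99, 13.29, 11.14 and 12.08 at 8 weeks (2.19, SE 0.58, adjusted p = 0.276), and ranged from 12.60 to 14.69 at 16 weeks. Its groups did not overlap. Serpina6, the corticosteroid-binding globulin, was 6.58, 11.34 and 7.73 against 6.35, 6.20, 6.64 and 6.25 (-2.19, SE 0.59, adjusted p = 0.288), with its highest value in 4-week animal 2. Glycam1, a mucin-like glycoprotein, was 10.81 in the same animal and 5.34 to 5.99 in the other 6 arrays.

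Col4a2, the partner of Col4a1 in the type IV collagen of the embryonic network, was 10.77, 11.18 and 10.97 at 4 weeks and 9.74, 9.69, 10.54 and 10.41 at 8 weeks in wild type (-0.88, SE 0.36, adjusted p = 0.847). Its difference in ob/ob was 0.27 (SE 0.36). Nid1, a nidogen of the same membrane, differed by -0.44 (SE 0.41) in wild type, where the groups overlapped, and by 0.88 (SE 0.41) in ob/ob. Neither gene passed the test of the difference between the steps.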
